A study of Arabidopsis thaliana with 18 samples.

Results

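Root cells over-expressing IAA19mII were set against root cells over-expressing IAA7mII, both treated with solvent only. The comparison takes 6 of the 18 arrays of the study by their sample titles: 3 mock arrays of the IAA19mII over-expressor and 3 mock arrays of the IAA7mII over-expressor. Both groups came from 7-day-old Arabidopsis thaliana Col-0 seedlings of the Pwer::GFP line, in which the WEREWOLF promoter drives green fluorescent protein in the outer cells of the root. Their roots were cut and digested to protoplasts (cells without walls) for 3 h. The protoplasts were transformed with polyethylene glycol using pBeaconRFP_IAA7mII or pBeaconRFP_IAA19mII, left overnight and given solvent for 3 h. Cells with both labels were then sorted by flow cytometry straight into extraction buffer, so all groups share digestion, transformation, sorting and RNA amplification. The study also holds both over-expressors given 5 µM indole-3-acetic acid (IAA), the main natural auxin, for 3 h, and empty vector cells with mock or IAA. The empty vector is another plasmid, pMON999_mRFP, so only the 2 over-expressors share a backbone. No label states that replicates came from separate cultures, and p-values then measure the spread between these arrays, which may be technical.

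IAA7 and IAA19 belong to the Aux/IAA family, nuclear proteins that repress auxin-induced genes by binding auxin response factors. Auxin bridges their domain II to TIR1/AFB receptors, which leads to their degradation, and changes in domain II stabilise them. The labels do not define mII, read here as a changed domain II. Comparing the 2 proteins on one backbone asks how far the cells differ according to which repressor they carry. No probeset carries the name IAA7 or IAA19 in the annotation used, so the level of each transgene was not checked by name. Whether any of the unnamed probesets measures one was not tested.

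More probesets were called higher than lower in cells with IAA19mII. Of 16892 probesets tested, 738 (4.37%) were called by limma at a Benjamini-Hochberg adjusted p under 0.05. Of these, 530 (3.14%) were higher and 208 (1.23%) were lower with IAA19mII. Without IAA7mII mock replicates 1, 2 and 3 the higher count was 410, 433 and 397 and the lower count 137, 135 and 121. Leaving out IAA19mII mock replicates 1, 2 and 3 gave 438, 420 and 364 higher and 165, 133 and 130 lower. The counts were 403 higher and 125 lower without an intensity trend. The median difference over all probesets tested was -0.059 on the log2(signal + 16) scale. Folds and differences below are on that scale, which understates the change of dim probesets, and values after ± are standard errors from the fit. The differences called higher were also larger, with 120 of at least 4-fold and 24 of at least 8-fold, against 12 and 1 among those called lower. The largest difference in each direction was that of a probeset without a gene name, called A (18.0-fold lower) and B (335-fold higher) here. A was extreme in the IAA7mII mock arrays, at 25590 to 28174, and B in the IAA19mII mock arrays, at 26034 to 35135, and whether either reads a transgene was not tested. The median called difference was 1.53 for the higher and -1.11 for the lower probesets. The 3 arrays of one group did not overlap the 3 of the other for 733 of the 738 called probesets, where 20.2% of all tested probesets showed no overlap. Without the test the balance ran the other way, with 9.57% of tested probesets non-overlapping and higher and 10.7% non-overlapping and lower. Arrays correlated at 0.948 to 0.956 within the IAA19mII group, 0.947 to 0.953 within the IAA7mII group and 0.923 to 0.940 between the groups. Only 333 of the called probesets match a single gene in the annotation, 222 higher and 111 lower, which is 3.5% of the tested probesets that do. A further 382 match no gene, so the genes named below cover less than all of the difference. Loci given by their identifier alone carry no description in the annotation used. A function is given only for AT5G64110, known as a peroxidase gene, and for loci with a second name.

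**Figure D1:**
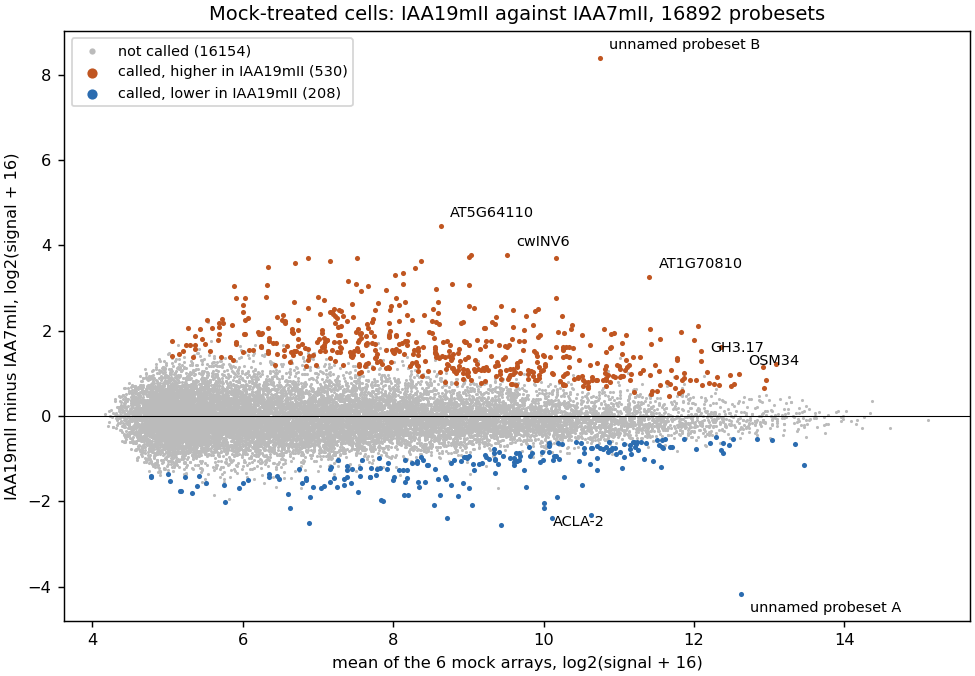
Difference between IAA19mII and IAA7mII cells in mock (vertical axis, log2(signal + 16)) against the mean of the 6 arrays (horizontal axis, same scale) for each of 16892 probesets. The 530 probesets called higher reach further from 0 than the 208 called lower, and the unnamed probesets A (lower) and B (higher) lie furthest out.

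Among single genes, the largest difference was that of AT5G64110, a peroxidase gene. Its signal was 116, 64.1 and 42.6 in the IAA7mII arrays and 1981, 1962 and 1618 in the IAA19mII arrays. Every IAA19mII array lay far above every IAA7mII array, with a difference of 4.45 ± 0.35 or 21.8-fold (limma adjusted p = 1.88e-09). The empty vector mock mean was 93.2, near the IAA7mII level. The next was cwINV6, annotated as a cell wall invertase gene whose product is also named a fructan exohydrolase, an enzyme that trims fructose polymers. It measured 311, 183 and 105 with IAA7mII and 2700, 3466 and 2073 with IAA19mII, again without overlap. The difference was 3.76 ± 0.35 or 13.6-fold (limma adjusted p = 4.91e-08), and here the empty vector mean of 23.9 lay below both over-expressors.

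AT5G43450 and AT3G59710 differed by nearly as much. AT5G43450 measured 105, 181 and 105 with IAA7mII and 2140, 1594 and 2056 with IAA19mII, a 13.5-fold difference (limma adjusted p = 1.35e-10). AT3G59710 measured 132, 150 and 98.4 against 1514, 2038 and 2062, a 13.2-fold difference (limma adjusted p = 5.35e-11). In both genes the groups stood apart and each group was tight. AT1G70810 combined a large difference with a high signal, at 769, 807 and 1028 with IAA7mII and 8340, 7738 and 9150 with IAA19mII. It differed 9.59-fold (3.26 ± 0.19, limma adjusted p = 3.46e-12) and had an empty vector mean of 1094.

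Some of the leading genes were close to background in IAA7mII cells. AT1G59740, also named NPF4.3, belongs to the NRT1/PTR family of nitrate, peptide and hormone transporters, and gave 0.7, 9.6 and 16.7 with IAA7mII and 236, 230 and 307 with IAA19mII. AT4G19720 gave 5.9, 5.6 and 1.9 against 103, 138 and 250. The IAA19mII arrays were well above the others in both, but the size of each difference (3.49 ± 0.41 and 3.06 ± 0.43, limma adjusted p = 1.86e-06 and 2.88e-05) depends on the 16 units added before taking logs. The remaining genes among the 14 largest rises were AT3G22570 (11.1-fold), AT4G36150 and AT5G23840 (8.57-fold each), AT1G70820 (8.21-fold), AT4G13860 (7.66-fold), AT3G53820 (6.96-fold) and AT3G23190 (6.8-fold). AT1G70820 varied within the IAA19mII group, at 794, 794 and 281, and still exceeded its highest IAA7mII array at 66.4. In 9 of these 14 genes the empty vector mean lay between the 2 over-expressor means, and in 5 it lay below both.

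**Figure D2:**
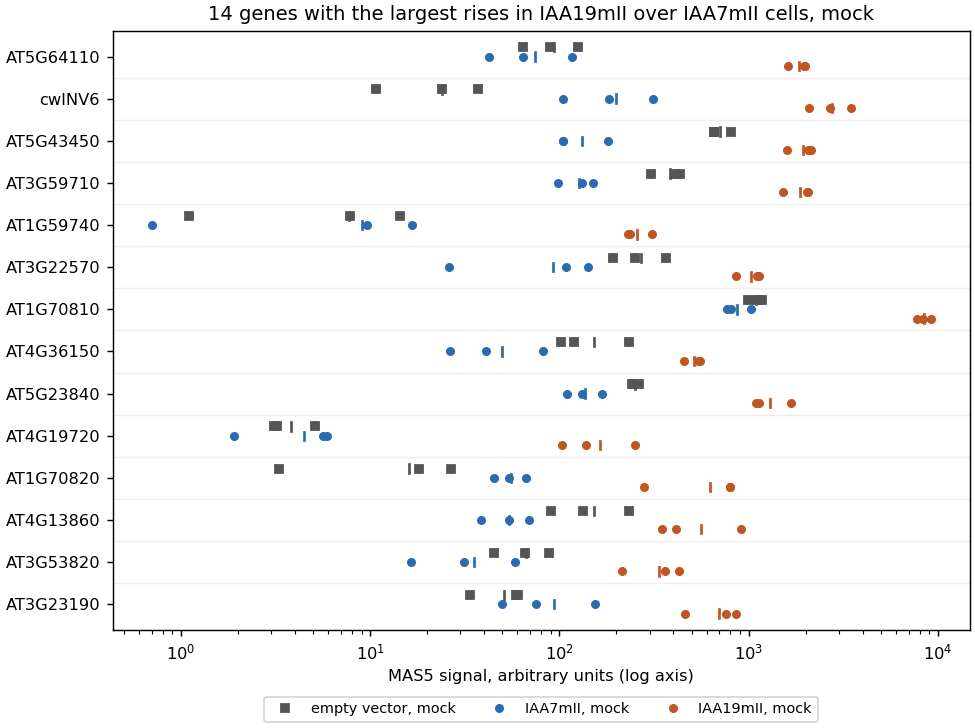
MAS5 signal on each mock array (horizontal log axis, arbitrary units) for the 14 single genes with the largest higher calls. Points are arrays and short vertical lines group means, with squares for empty vector. The genes were taken only from calls without overlap, so every IAA19mII point lies to the right of every IAA7mII point. AT5G64110 lies at 1618 or more against 116 or less and AT3G23190 at 462 or more against 155 or less.

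Among single genes, the largest fall was that of ACLA-2, a gene for the A subunit of ATP citrate lyase, the enzyme that makes cytosolic acetyl-CoA. It measured 2221, 1606 and 2765 with IAA7mII and 316, 496 and 656 with IAA19mII. Its groups did not overlap, and the signal fell by 2.16 ± 0.34 on the log2 scale (4.45-fold, limma adjusted p = 0.000123). The related ACLA-1 ran the other way, at 480, 663 and 460 with IAA7mII and 834, 1048 and 1146 with IAA19mII (0.9 ± 0.26, limma adjusted p = 0.0436). The other 2 tested subunit genes were not called. The ACLA-1 call was lost in 11 of 18 other settings and the ACLA-2 call in 0.

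AT1G70450 measured 191, 183 and 207 with IAA7mII and 69.7, 10.3 and 30.2 with IAA19mII, a 4.45-fold fall (limma adjusted p = 0.0106). AT5G54130 measured 3016, 1727 and 2112 against 704, 545 and 523, a 3.73-fold fall (limma adjusted p = 4.73e-06), and its other probeset fell by 2.04. AT3G56350 measured 528, 518 and 575 against 165, 104 and 154, a 3.6-fold fall (limma adjusted p = 0.000236). In all 3 genes every IAA19mII array was below every IAA7mII array, as the choice of the 14 genes required. The falls of AT1G33770, AT1G26390, AT5G55050, AT1G08310, AT1G64500, AT1G75770, AT4G01140, AT2G34340, AT5G58575 and AT5G45630 ran from 3.7-fold to 3.15-fold. AT1G64500 and AT1G75770 were near background with IAA19mII, at no more than 6.5 and 5.3. AT5G55050 was uneven in both groups, at 334, 362 and 1164 with IAA7mII and 83, 104 and 258 with IAA19mII. In 9 of the 14 genes with the largest falls the empty vector mean lay between the over-expressors, and in 5 it lay below both.

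**Figure D3:**
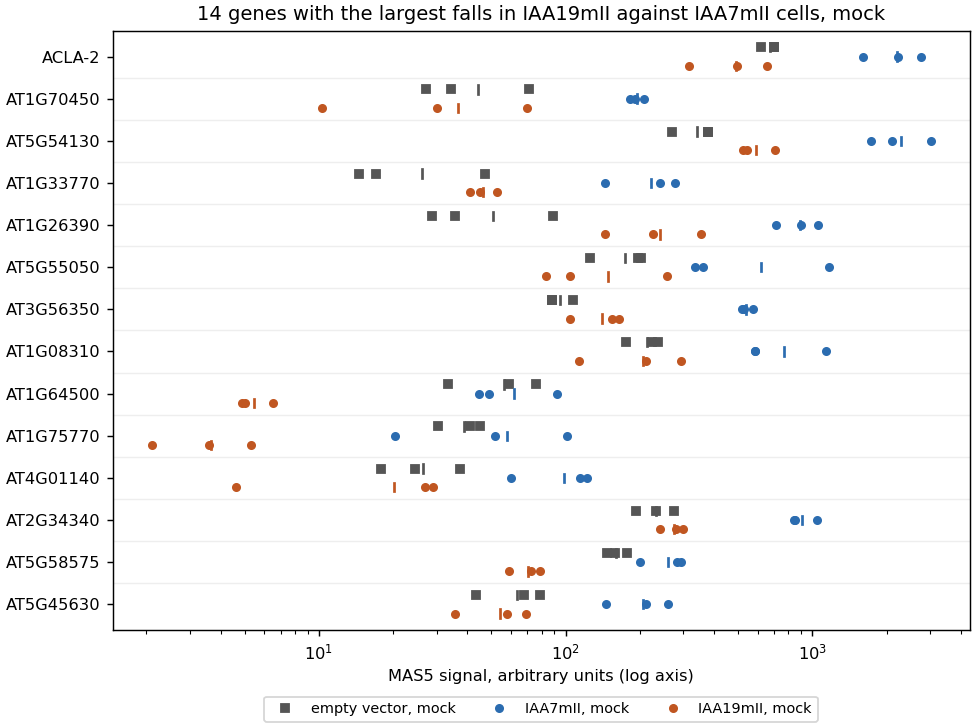
MAS5 signal on each mock array (horizontal log axis, arbitrary units) for the 14 single genes with the largest lower calls, drawn with points for arrays and short lines for means. The genes were taken only from calls without overlap, so the IAA19mII points all lie to the left of the IAA7mII points. ACLA-2 lies at 656 or less against 1606 or more.

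Auxin conjugation genes were among those that differed. GH3 enzymes attach amino acids to auxin and so lower its active pool, and some of their genes are usual early targets of auxin. Of 4 tested GH3 genes, 2 were called higher and none lower, with a list median of 0.68. Over all tested single-gene probesets 3.5% were called. GH3.17 measured 2541, 3424 and 2479 with IAA7mII and 6688, 7885 and 6095 with IAA19mII, which is 2.45-fold higher (1.29 ± 0.21, limma adjusted p = 0.000149). WES1, also named GH3.5, measured 1330, 1100 and 1158 against 2473, 2964 and 2764, which is 2.27-fold higher (1.18 ± 0.17, limma adjusted p = 3.84e-05). The groups did not overlap for either gene. GH3.1 and GH3.3 were dim and not called, at means of 17.1 and 5.73 with IAA7mII and 26.3 and 6.4 with IAA19mII. The empty vector mock means differed in place, at 2251 for GH3.17, below both over-expressors, and 3120 for WES1, above both. With IAA the empty vector mean was 1151 for GH3.17 and 9038 for WES1, so of these only WES1 was higher with IAA there.

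LBD16, a factor of lateral root initiation that acts downstream of auxin response factors, was also higher. It measured 59, 49.7 and 28.3 with IAA7mII and 121, 120 and 263 with IAA19mII, without overlap (1.53 ± 0.41, limma adjusted p = 0.0289), though the call was lost in 7 of 18 other settings. The other tested LBD gene, LBD29, was near background at means of 4.47 with IAA7mII and 3.57 with IAA19mII and was not called. Of the Aux/IAA genes themselves, 7 had a named probeset and 4 were tested, of which 0 were called, where 3.5% of all tested single-gene probesets were called. IAA18 measured 196, 212 and 236 against 495, 403 and 288, without overlap but short of the threshold (0.8 ± 0.26, limma adjusted p = 0.0901). IAA34 differed by -0.58 ± 0.34, IAA29 by 0.47 ± 0.48 and IAA30 by -0.041 ± 0.35, with limma adjusted p from 0.46 to 0.979. IAA29 and IAA30 were dim here, at means of 1.77 and 23.9 with IAA7mII and 9.53 and 27 with IAA19mII, so their values say little. In empty vector cells with IAA their means were 1062 and 3657. The remaining IAA20, IAA31 and IAA33 were too dim to test, at 22.8 or less on all 6 arrays. Among other auxin genes, WAG2, a kinase of the auxin efflux pathway, differed by 1.01 (limma adjusted p = 0.29) and YUC2, an auxin synthesis enzyme, by -0.57 (limma adjusted p = 0.547).

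Enzymes that modify small molecules were called in both directions, where 3.5% of all tested single-gene probesets were called. UDP-glycosyltransferases, which attach sugars to hormones and secondary metabolites, had 5 of 41 tested genes called higher and 3 lower, with a list median of 0.085. UGT76D1 was the most different, at 37.5, 90.5 and 37.9 with IAA7mII and 294, 395 and 381 with IAA19mII (5.48-fold, limma adjusted p = 4.79e-06). UGT71B5 followed at 472, 396 and 426 against 1811, 1439 and 2766 (4.37-fold, limma adjusted p = 1.5e-05). The IAA19mII arrays were the higher in both, whereas UGT73C7 fell from 156, 276 and 442 with IAA7mII to 69.3, 55 and 117 with IAA19mII (3.06-fold, limma adjusted p = 0.0077). Also called higher were UGT73B5 (1.44), UGT76B1 (1.26) and UGT73B4 (1.25), and called lower UGT71C4 (-1.24) and UGT73D1 (-0.86).

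Of 11 glutathione transferase genes, whose products conjugate glutathione to reactive compounds, 2 were called higher and none lower. The share called over all tested single-gene probesets was 3.5%. GSTU27 measured 638, 939 and 623 with IAA7mII and 1944, 2335 and 2514 with IAA19mII (3.08-fold, limma adjusted p = 3.84e-05), and GSTU16 was 2.65-fold higher. CYP71B6 was the 1 called member of 14 cytochrome P450 genes and was 1.8-fold higher (limma adjusted p = 0.000429), while scpl29 was the 1 called of 16 serine carboxypeptidase-like genes and was also 1.8-fold higher (limma adjusted p = 0.0389), a call lost in 9 of 18 other settings. Of 14 tested beta-glucosidase genes with a BGLU symbol, BGLU28 was 2.37-fold higher and BGLU15 was 2.01-fold lower. Their calls were lost in 9 and 6 of 18 other settings. PYK10, the beta-glucosidase gene of ER bodies given below, is not among these 14 and was called higher.

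Defence and regulatory genes gave a few higher calls, where 3.5% of all tested single-gene probesets were called in either direction. OSM34, an osmotin-like protein of the pathogenesis-related type, measured 4403, 4530 and 4197 with IAA7mII and 8920, 7724 and 9644 with IAA19mII (1.99-fold, limma adjusted p = 0.00022). The IAA19mII arrays were all above the IAA7mII arrays. Of 5 tested WRKY factors, which regulate stress and defence genes, WRKY47 (3.7-fold, limma adjusted p = 0.000462) and WRKY22 (2.31-fold, limma adjusted p = 0.0281) were higher. WRKY47 measured 70.4, 77.9 and 46.1 against 284, 366 and 207, without overlap. SIM, also named SIAMESE, an inhibitor of cyclin-dependent kinases, was 2.41-fold higher (limma adjusted p = 0.0188). LHCB4.3, a photosystem II light-harvesting protein, was the 1 called of 8 chlorophyll-binding and photosystem genes and was 2.91-fold lower (limma adjusted p = 0.0155).

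In several lists no gene was called. Since 3.5% of the tested single-gene probesets were called in all, a count of 0 in lists of this size is near the background. None of 14 expansins, proteins that loosen the wall, was called, and their median was -0.14. Many of them were dim, so their differences say little. EXPA15, EXPA8 and EXPB2 had means of 21.6, 16.1 and 29.4 with IAA7mII and 15.2, 22.3 and 20.9 with IAA19mII. EXLA1 was brighter, at 338 and 336. EXPA7 gave 39.2, 27.4 and 25.9 with IAA7mII and 71.8, 40.8 and 203 with IAA19mII (1.15 ± 0.52, limma adjusted p = 0.294), and EXPA21 differed by 0.84 ± 0.43. None of 4 xyloglucan endotransglucosylases was called, although XTH19 at 112, 119 and 142 against 194, 349 and 240 had no overlap and an adjusted p of 0.0507 by limma. The 12 sugar carriers had no call and a median of -0.061, with SWEET16 at 1.33 ± 0.5 and SWEET8 at -0.91 ± 0.47 the furthest from 0. Some were dim, such as SFP2, SWEET14 and SWEET9 at means of 18.6, 4.6 and 26.3 with IAA7mII. SFP1 and SWEET2 were bright, at 4146 and 4684. The counts were 0 of 5 cellulose synthase family genes, 0 for the 1 tested pectin enzyme gene (PMEPCRF, -0.18), 0 of 10 autophagy genes and 0 of 6 histone genes. HTB2, a histone H2B gene, was nearest, at 165, 319 and 190 against 85.7, 78.1 and 95.8 (-1.18 ± 0.39, limma adjusted p = 0.0981). Of 66 plastid-encoded probesets tested 0 were called, with a median of 0.16.

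Hormone and stress genes of other pathways were also not called. The cytokinin response regulators RR16 and RR22 differed by -1.07 ± 0.4 and -1.02 ± 0.43 (limma adjusted p = 0.163 and 0.232). EIN3, the main transcription factor of ethylene signalling, differed by 0.00069 ± 0.15 at a mean of 3235 and 3236. The brassinosteroid genes BRL1, a receptor, and BIM1, a transcription factor, differed by -0.7 and 0.65, and the gibberellin receptor genes GID1C and GID1B by 0.25 and 0.23. COR47, a cold- and abscisic acid-induced dehydrin, differed by 0.12 ± 0.14 at a mean of 14832 and 16067. Among stress genes, the hypoxia regulator gene AT3G10040, also named HRA1, differed by 0.53 and the pyruvate decarboxylase gene PDC2 by -0.0069, while the unfolded protein factor gene BZIP60 differed by -0.12 and AT5G48570, also named FKBP65, by -0.36. The transcription factor genes STZ, WRKY53 and NAC014 differed by 0.54, 0.2 and 0.0086, and COR15B by 0.12. In all, 41 of 59 gene lists had a tested member and 13 had a call. Of the 207 listed genes tested 24 were called, 19 of them higher, where 3.5% of all tested single-gene probesets were called. The lists were chosen with earlier results of these data known, so these shares are not a test of the lists.

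**Figure D4:**
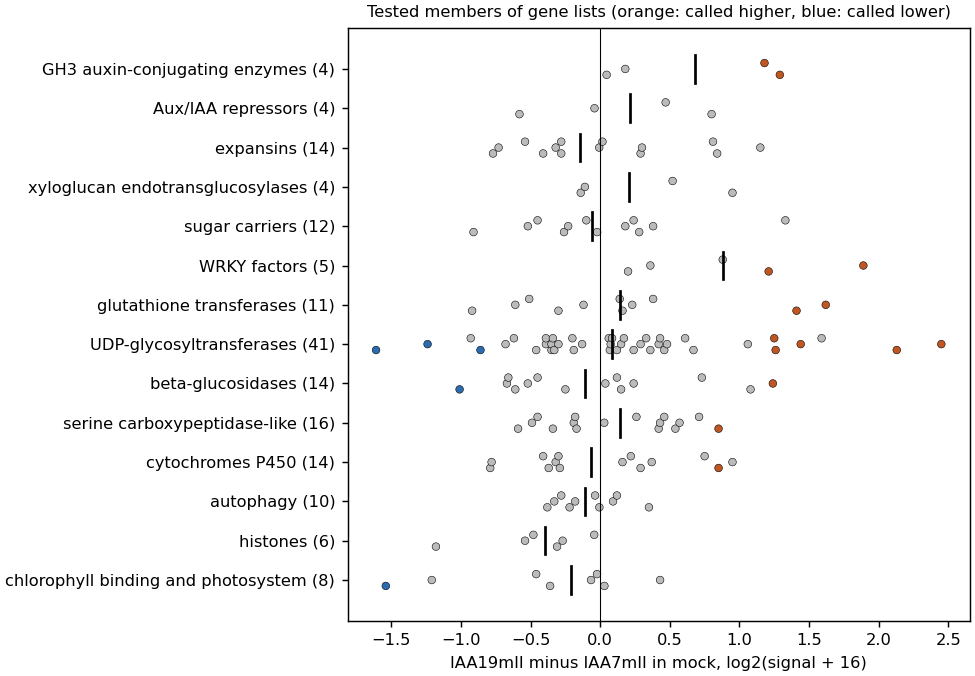
Difference between IAA19mII and IAA7mII cells in mock (horizontal axis, log2(signal + 16)) for each tested gene of 14 lists, with the number tested in brackets. Orange points were called higher, blue lower, grey not called, and black bars are list medians. The UDP-glycosyltransferases have calls on both sides, and the 14 expansins, 12 sugar carriers, 10 autophagy and 6 histone genes have none, where 4.37% of all tested probesets were called.

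Further gene groups were drawn up after the called genes had been seen, so their counts are a description only. The share called over all tested single-gene probesets was 3.5%, and groups built around called genes will exceed it. Members were found by symbol, synonym or locus, so a group need not hold all tested genes of its family. Of 4 tested genes of phenylpropanoid synthesis, the route to lignin and related phenolics, 3 were called higher. CCR2, a cinnamoyl-CoA reductase, measured 1.2, 25 and 4.1 with IAA7mII and 48.9, 77 and 204 with IAA19mII (2.18 ± 0.52, limma adjusted p = 0.011). HCT, which transfers hydroxycinnamoyl groups, measured 149, 139 and 166 against 307, 318 and 425 (1.11 ± 0.27, limma adjusted p = 0.0107). The third, ALDH2C4, an aldehyde dehydrogenase of ferulate and sinapate formation, was 1.49-fold higher, a call lost in 11 of 18 other settings. Class III peroxidases are secreted enzymes that oxidise phenolics. Of 7 tested genes found as such by symbol or synonym, 3 were called higher, namely AT5G64110, PRX52 and AT5G64120, also named PRX71. PRX52 measured 97.9, 92.2 and 40.1 with IAA7mII and 357, 718 and 613 with IAA19mII (6.29-fold, limma adjusted p = 0.000483). The other 4 were not called, and the median of the 7 was -0.31. PRXR1, a tested peroxidase gene outside the 7, was not called either (0.28).

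Of 6 tested NPF transporters found by synonym, 3 were called higher: AT1G59740, the glucosinolate transporter gene GTR2 (1.29) and AT1G72125 (1.19), also named NPF5.13. The calls of GTR2 and AT1G72125 were lost in 7 and 11 of 18 other settings. This group and those that follow were also drawn up around called genes, where 3.5% of all tested single-gene probesets were called. Both tested chitinase genes found by symbol or synonym were higher, ChiC by 2.25 ± 0.42 and CHI by 0.79 ± 0.21. The CHI call was lost in 7 of 18 other settings. Among 5 genes of ER bodies, the beta-glucosidase stores of root and seedling cells, NAI1, the factor that controls them, was 2.95-fold higher and PYK10, their main enzyme, 1.88-fold higher. PYK10 measured 3105, 3473 and 4580 with IAA7mII and 6317, 5917 and 8782 with IAA19mII, without overlap. TRM28 (2.37) and TRM19 (0.95) of 10 TON1 recruiting motif genes, whose products organise cortical microtubules, were higher, as were the tetraspanins TET3 (1.82) and TET2 (1.4) of 9. Of 3 tested late embryogenesis abundant genes found by symbol or synonym, AT2G46140, also named LEA27, was 3-fold higher and LEA18 1.98-fold higher. The TET2 call was lost in 8 of 17 other settings and the LEA18 call in 7 of 18.

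Called genes sometimes lay next to each other in the genome. In the TAIR10.1 gene order, 3325 pairs of adjacent genes were both tested, and 55.5% of all such pairs had differences of the same sign. In 16 pairs both genes were called, of which 12 were higher in both, 2 lower in both and 2 opposite. A called gene had a called neighbour in 12% of cases, where 4.0% of all genes in these pairs were called. On chromosome 5, AT5G64100 (1.36), AT5G64110 (4.45) and AT5G64120 (1.61) formed one run and AT5G43440 (2.72), AT5G43450 (3.76) and AT5G43460 (1.12) another. AT5G64100 measured 1894, 3029 and 1786 with IAA7mII and 6061, 6442 and 4545 with IAA19mII, so the run was high in bright and dim members alike. The cwINV6 gene lay beside AT5G11910 (1.87), AT1G70810 beside AT1G70820 (3.04), AT5G23840 beside AT5G23830 (2.51) and AT4G36150 beside AT4G36140 (1.3).

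Other pairs were AT1G70780 (0.96) with AT1G70790 (1.5), UGT73B5 with UGT73B4, AT5G45500 (1.25) with AT5G45510 (0.74), and PEL1, the PELOTA gene of ribosome rescue (1.15), with AT4G27652 (1.57). The calls of AT1G70790 and AT5G45510 were lost in 12 and 9 of 18 other settings. UGT73D1 and UGT73C7 were both lower, as were AT4G01130 (-1.48) and AT4G01140 (-1.7). The opposite pairs were BGLU15 with BGLU28, and AT2G28680 (-0.79) with AT2G28690 (1.67). Adjacent genes are often similar copies whose transcripts can bind each other's probes, and how much these probesets share was not tested.

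The same 2 over-expressors were also compared on 6 other arrays, those treated with IAA. Of the 738 probesets called in mock, 707 (95.8%) had a difference of the same sign there, against 62.6% of all tested probesets. The share was 521 of 530 for those higher and 186 of 208 for those lower. With all 18 arrays in the fit, limma called 1122 probesets (6.64%) with IAA, 705 (4.17%) higher and 417 (2.47%) lower, and 487 (66.0%) of the mock calls were among them in the same direction. The split depended on the setting, with 550 higher and 478 lower under median centring and 384 and 96 on its own 6 arrays. That fit pools the spread over all groups, while the IAA-treated over-expressor groups were noisier, with median probeset SDs of 0.438 and 0.424 against 0.346 and 0.345 in mock. In simulated data with those unequal spreads the IAA comparison gave 48 false calls, beside 39 recovered of the 100 probesets changed by log2 1 and 85 of the 100 changed by log2 2, while the mock comparison gave 4. Fitted on its own 6 arrays, the IAA comparison had 480 calls, and 346 (46.9%) of the mock calls were among them, 295 higher and 51 lower.

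The genes with the largest rises in mock were high with IAA19mII under IAA as well. AT5G64110 differed by 4.05, AT5G43450 by 3.84, AT3G59710 by 4.28 and AT1G70810 by 3.26, with limma adjusted p from 1.16e-08 to 2.59e-12. All 14 of the genes with the largest rises were called with IAA in the same direction, and 5 of the 14 with the largest falls were. Among the falls not called with IAA, AT1G70450 went from -2.15 in mock to 0.016 with IAA, AT1G64500 from -1.81 to -0.38, AT1G75770 from -1.75 to -0.3 and AT5G55050 from -1.86 to -0.61. UGT73C7, outside the 14, went from -1.61 to -0.35. The change between mock and IAA was called in none of these (limma adjusted p = 0.649 to 0.78). The rest of the 14 not called with IAA kept larger falls. AT4G01140 differed by -1.24, AT1G26390 by -1.05, AT3G56350 by -0.98, AT5G58575 by -0.79 and AT5G45630 by -0.75 (limma adjusted p = 0.053 to 0.235). GH3.17 differed by 1.35 and WES1 by 0.84 with IAA (limma adjusted p = 7.82e-05 and 0.00199). IAA18, short of the threshold in mock, differed by 1.37 with IAA (limma adjusted p = 0.00114), while its change between mock and IAA was not called (limma adjusted p = 0.848).

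**Figure D5:**
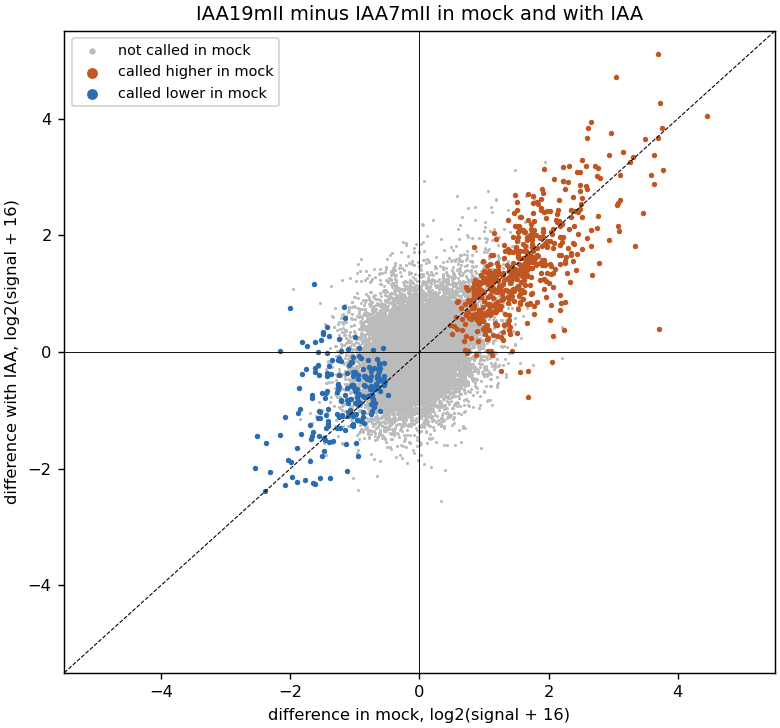
Difference between IAA19mII and IAA7mII cells with IAA (vertical axis) against the difference in mock (horizontal axis), both in log2(signal + 16), with the unnamed probesets A and B, which have a group listed at 0, outside the axes. Orange and blue points were called higher and lower in mock, and the dashed line marks equal differences. Of the 530 orange points 521 lie above 0 and of the 208 blue points 186 lie below 0, the rest being on the other side.

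Whether the difference itself changed between mock and IAA was tested as an interaction. It was called for 3 probesets (0.0178%) by limma, none of them matched to a gene and 2 of them, A and B, with a group listed at 0 on all its arrays, with 1071 at an unadjusted p under 0.05. In simulated data this test recovered 6 of the 100 probesets changed by log2 1 and 47 of the 100 changed by log2 2, so smaller changes would mostly be missed. The single genes nearest the threshold were IQD27, a calmodulin-binding IQ-domain gene, AT1G50920, AT5G05220 and AT2G16005, with adjusted p from 0.182 to 0.276. IQD27 had means of 35.5 and 85.1 with IAA7mII and IAA19mII in mock and 61.1 and 10.7 with IAA.

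Empty vector cells give a further level, although their plasmid differs. Among the 530 probesets called higher with IAA19mII, the empty vector mock mean lay between the over-expressors for 288, below both for 184 and above both for 58. Among the 208 called lower it lay between for 105, below both for 68 and above both for 35. The median of the group means for the higher probesets was 219 with IAA7mII, 313 with empty vector and 694 with IAA19mII. For the lower probesets it was 897, 505 and 409 in the same order.

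The sorted cell type could be checked at few markers in the named annotation. TRY, a small MYB factor of hair patterning in the epidermis, measured 19.9, 24.4 and 16.1 with IAA7mII and 34.6, 54.3 and 45.6 with IAA19mII (0.74 ± 0.37, limma adjusted p = 0.36), dim in both groups. EXPA7, the tested root hair marker, is given above. AGL42, a marker of the quiescent centre, differed by 0.18 at means of 80 and 93.7, and no tested marker of cortex, endodermis or stele was at hand. Neither TRY nor EXPA7 was called. Both were higher in every IAA19mII array than in any IAA7mII array, narrowly for EXPA7 (40.8 against 39.2). Over all tested probesets 9.57% were non-overlapping and higher. The part of TRY and EXPA7 in the other differences was not tested. In sorted bulk cells, a different mix of cells and a different amount of RNA per cell cannot be told apart.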

How the data were processed

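The authors deposited MAS5 signal intensity for each ATH1 probeset, on a linear scale (MAS5 per the submitters' processing notes, version not given in the sources used here). RNA was amplified with a NuGEN Pico kit, per the labels' protocols. The deposited scaling was kept, with trimmed means of 246.5 to 247.6 on all 18 arrays. Precision is limited by the number of arrays.

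A probeset was tested if its signal passed the array's own 40th percentile on 3 or more arrays, which 16892 of 22746 did. limma 3.58.1 (R 4.3.3) was run on log2(signal + 16) with a mean for each group over all 18 arrays and an intensity trend, and p-values were adjusted by Benjamini-Hochberg over all tested probesets. Names come from the platform annotation and a TAIR10.1 gene table, with 13513 probesets of 1 gene, 503 of several and 8730 of none. The brightest probeset stands for a gene.

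The rule names the 14 largest non-overlapping calls in each direction, every measured Aux/IAA gene, up to 4 called or else 2 uncalled members of each list, and 4 genes of the interaction. Comparison, lists and tests were chosen with earlier results of these data known. A further 9 lists and the neighbour pairs were chosen after the values were seen, as were 7 exclusions of genes whose symbols matched a list by accident. Simulated data of 16892 probesets with unequal group spreads gave 4 false calls in the mock comparison. It recovered 43 of the 100 probesets changed by log2 1 and 86 of the 100 changed by log2 2. In all simulated comparisons changes were planted only outside the dimmest probesets, so recovery among the dimmest was not measured. Alternatives were other pseudocounts (1 and 64), filters, scalings, spreads and tests, the replicate number as a block, and leaving out each array. No genome was used here, so no sequences are given.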

Additional observations from a re-analysis of the deposited data

Results flagged for a closer look

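Limma's interaction test between mock and IAA passed its threshold for 3 probesets that match no gene in the annotation, called A, B and C here. For A and B the test rests on a group listed at 0 on all 3 arrays, so it is not read as a change in expression. Unnamed probeset A (interaction adjusted p = 3.84e-21) measured 25590, 26349 and 28174 in the IAA7mII mock arrays and 1504, 1550 and 1357 in the IAA19mII mock arrays. With IAA it was listed at 0 on all 3 IAA7mII arrays and lay between 1333 and 1669 on the IAA19mII arrays. Its empty vector signals lay between 805.1 and 1140. Unnamed probeset B (interaction adjusted p = 2.91e-19) measured 83.9, 83.8 and 67.2 in IAA7mII mock and 35135, 26034 and 33915 in IAA19mII mock. With IAA it was listed at 0 on all 3 IAA19mII arrays and lay between 347 and 988.3 on the IAA7mII arrays. Empty vector signals of B lay between 628.7 and 881 in mock and between 4918 and 5700 with IAA. No fold is given against a group listed at 0, and whether these zeros are failed estimates was not tested.

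Unnamed probeset C (interaction adjusted p = 3.51e-05) measured 19.2, 14.4 and 15.1 in IAA7mII mock and 327, 285.2 and 699.5 in IAA19mII mock. With IAA it lay between 860.2 and 1802 with IAA7mII and between 1373 and 1717 with IAA19mII, so the groups overlapped there. Empty vector signals of C lay between 559.4 and 731.1 in mock and between 8017 and 9780 with IAA.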

How the results depend on the processing

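The mock count of 738 lay between 528 and 823 under the other settings and between 494 and 603 when 1 array was left out. In all of 17 settings 320 probesets (275 higher) were called. Those 17 leave out the setting that also asked for at least 2-fold and the filter at the 60th percentile. The IAA count of 1122 became 539 with array weights and 480 with only its own arrays. The interaction count of 3 became 7 without an intensity trend, and 3 to 5 when 1 array was left out (5 without IAA19mII with IAA replicate 1). Of 81 called genes named, 47 kept their call in every setting counted, 34 lost it in at least 1 and 0 changed sign. The settings counted for single genes, at most 18, leave out the one that asked for at least 2-fold. Uncalled genes near 0 changed sign. With a pseudocount of 64, IAA30 was 0.015 and PDC2 0.018, and with a pseudocount of 1 NAC014 was -0.15. Median centring gave 0.026 for PDC2, quantile normalization 0.021 for IAA30 and -0.0067 for EIN3, and array weights -0.12 for NAC014. Leaving out 1 array spread IAA30 over -0.52 to 0.21, PMEPCRF -0.31 to 0.061, CSLC04 -0.81 to 0.14, PDC2 -0.42 to 0.4, AT5G48570 -0.76 to 0.019, BZIP60 -0.31 to 0.13, WRKY53 -0.047 to 0.39, NAC014 -0.45 to 0.69, EIN3 -0.05 to 0.038, GID1C -0.09 to 0.73, COR15B -0.17 to 0.34, ZIP9 -0.13 to 0.63 and AGL42 -0.16 to 0.51. The cause was not tested. With the replicate block the mock count was 794. Arrays of the same number correlated at 0.0598 to 0.0697 in their deviations between the mock groups, and arrays of other numbers at -0.0603 to -0.00397. Deviations within a group of 3 arrays sum to 0, so the second range follows in part from the first. The same-number values were small and give at most a weak hint at pairing, which the labels do not state. A scan date block was not run, since the experiment files used here give no date.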
